A study of Mus musculus with 32 samples.

Results

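The miR-143 and miR-145 group was taken as the rows of the deposited microRNA table whose base name is miR-143, miR-145a or miR-145b, on either arm of the hairpin. This rule uses names alone and no measured value. It found 5 of the 870 miRNAs in the table: miR-143-3p, miR-143-5p, miR-145a-5p, miR-145a-3p and miR-145b. All 5 were among the 354 miRNAs that passed the filter on low values (8 or more libraries with a normalized value of 1 or more).

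The libraries came from mesenteric arteries, the small arteries that feed the intestine, of male mice aged 10 to 12 weeks at the start. The ieET-1 mice overexpress the vasoconstrictor peptide endothelin-1, and the ieCre mice are their controls. By the series' design text, a Cre recombinase that tamoxifen switches on is driven by the Tie2 promoter, an endothelial promoter, and the controls carry it too. All groups received daily subcutaneous tamoxifen (1 mg/kg) over 5 days, and the arteries were taken 3 months later (long term) or 16 days later (short term). The 4 groups were 8 libraries of ieET-1 long term, 7 of ieCre long term, 8 of ieET-1 short term and 7 of ieCre short term, with 1 animal number per library. A further 2 labelled ieCre mice, 1 per time, were not analysed here. Whole arteries were sequenced, so fewer cells of a type and less RNA per cell cannot be told apart.

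miR-143 and miR-145 are made from neighbouring hairpins of a shared primary transcript. In vessels they are known as miRNAs of contractile smooth muscle: serum response factor and myocardin switch the transcript on, and both miRNAs repress regulators of the synthetic, proliferative state, among them Klf4, Klf5 and Elk1. Each hairpin gives a 5p and a 3p strand, of which the guide strand is mostly kept in Argonaute and the passenger strand is mostly degraded. The guide is usually miR-143-3p for miR-143 and miR-145a-5p for miR-145a.

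The miRNAs whose values followed the guides most closely were found by Pearson's r of log2(value + 1) over 30 libraries, after group means were removed and with the members left out. Their mature sequences are shown, from RefSeq (GRCm38.p6), because they were the nearest neighbours of the guides in these data. The seed, bases 2 to 8 from the 5′ end, is in capitals. For miR-143-3p they were, in falling order of r:
miR-101b-3p: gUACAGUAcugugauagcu
miR-1843b-5p: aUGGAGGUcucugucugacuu
miR-1843a-5p: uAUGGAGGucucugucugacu
let-7i-5p: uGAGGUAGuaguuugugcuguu
miR-101a-3p: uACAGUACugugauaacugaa

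For miR-145a-5p the first 4 were:
miR-331-3p: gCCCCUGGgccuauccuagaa
miR-30c-5p: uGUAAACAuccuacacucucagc
miR-193b-3p: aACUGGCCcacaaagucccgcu
miR-345-3p: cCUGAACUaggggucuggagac
The fifth was miR-378a-5p. None of these shares a seed with another, but the seeds of miR-101b-3p and miR-101a-3p overlap in 6 bases, shifted by 1, and so do those of miR-1843b-5p and miR-1843a-5p, whose reads may be shared between them. The 9 whose sequences are given lie on other chromosomes than the members, for example miR-101b-3p at chr19:29135338-29135356 (plus strand), let-7i-5p at chr10:122985698-122985719 (minus strand) and miR-331-3p at chr10:93963783-93963803 (minus strand). The correlation with miR-143-3p was 0.908 for miR-101b-3p, 0.888 for miR-1843b-5p, 0.885 for miR-1843a-5p, 0.857 for let-7i-5p and 0.856 for miR-101a-3p. On log2 shares of reads, which do not carry the scaling of a library, the same 5 correlations were 0.49 to 0.635. For miR-145a-5p they were 0.844 for miR-331-3p, 0.843 for miR-30c-5p, 0.787 for miR-193b-3p, 0.756 for miR-345-3p and 0.735 for miR-378a-5p. On log2 shares these were 0.85 for miR-331-3p, 0.955 for miR-30c-5p, 0.919 for miR-193b-3p, 0.875 for miR-345-3p and 0.861 for miR-378a-5p. The points of all these correlations share the library, its depth and its scaling, and no miRNA was near both guides in these lists.

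The deposited values were whole multiples of the value of 1 read, so that reads could be recovered. They ranged from 1820166 to 35531345 miRNA reads per library, with group medians of 13644237 in ieET-1 long term, 10037656 in ieCre long term, 27181680 in ieET-1 short term and 10527662 in ieCre short term. The short-term libraries of ieCre mouse 8 and ieET-1 mouse 258 were nearly identical (r = 0.99994 on the log2 scale). Of 537 miRNAs, 381 had more reads in the ieCre library, 156 had as many and 0 had fewer, and the reads of the 5 members stood in ratios of 1.02 to 1.044. These libraries are kept as labelled, and calls without them are given where they differ.

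In the GENCODE M21 annotation (GRCm38), Mir143 lies at chr18:61649196-61649258 and Mir145a at chr18:61647825-61647894, both on the minus strand, with 1301 bases between them. The lincRNA gene Carmn lies upstream on the same strand, and its downstream end is 366 bases from Mir143 (chr18:61649625-61665537). Bvht, a lincRNA gene on the plus strand, ends 352 bases from Mir145a (chr18:61639542-61647472). Mir145b is annotated at chr18:69022199-69022273, 7.37 megabases away, so miR-145b bears the family name but is not part of the cluster of the other 2 genes. Mir378a, the gene of miR-378a-5p named above, lies on the minus strand of the same chromosome (chr18:61397835-61397900), 0.25 megabases from Mir145a.

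miR-143-3p was the most abundant miRNA in all 30 libraries and averaged 45.5% ± 11.2 of miRNA reads (SD, n = 30). miR-10b-5p came next with 20.3% ± 4.51, then miR-10a-5p with 5.39% ± 2.35 and 1 of the rows of miR-486-5p with 3.92% ± 2.54. In ieET-1 long term the share of miR-143-3p ran from 34.9% through a median of 57.8% to 68.6%. In ieCre long term it ran from 33.5% through 49.6% to 66.4%. In ieET-1 short term it ran from 34.2% through 40.5% to 52.6%, and in ieCre short term from 27.9% through 37.4% to 45.7%. The highest shares were in long-term libraries of both genotypes, and all groups overlapped. The share of miR-10b-5p averaged 18.4% ± 2.73 in ieET-1 long term, 23.7% ± 5.22 in ieCre long term, 18.9% ± 2.94 in ieET-1 short term and 20.5% ± 5.55 in ieCre short term (SD, n = 8, 7, 8 and 7).

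On the scale of the deposited normalized values, miR-143-3p had 193710 at the lowest, 654830 at the median and 1220800 at the highest in ieET-1 long term. It had 384300, 641620 and 2252900 in ieCre long term. It had 209170, 276810 and 698690 in ieET-1 short term, and 194240, 258300 and 396700 in ieCre short term. Both long-term medians were above both short-term medians. In ieCre mice 6 of 7 long-term libraries were above every short-term library, whereas in ieET-1 mice 3 of 8 were, and the lowest long-term ieET-1 library (mouse 9490) was below every short-term ieET-1 library.

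**Figure D1:**
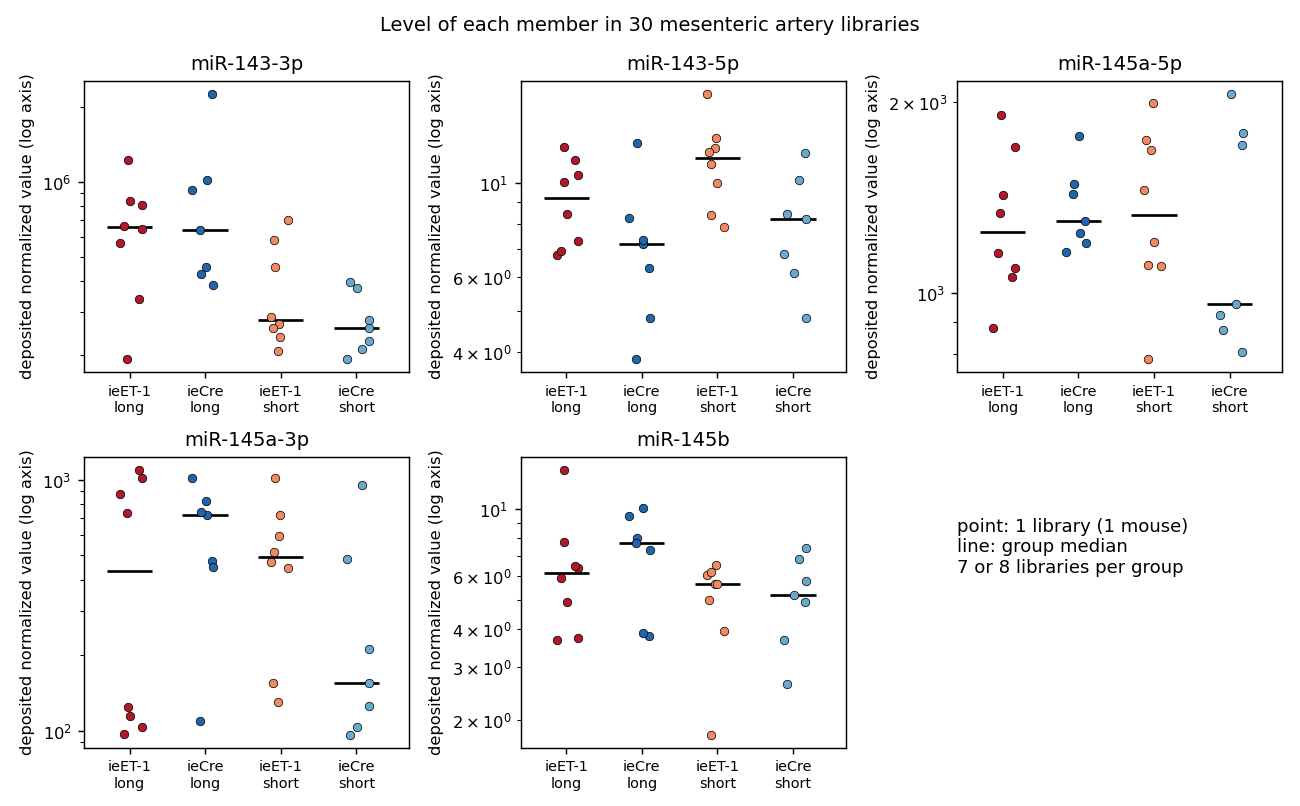
Deposited normalized value (log axis) of miR-143-3p, miR-143-5p, miR-145a-5p, miR-145a-3p and miR-145b in ieET-1 long term, ieCre long term, ieET-1 short term and ieCre short term, with 1 point per library and a line at the group median. miR-143-3p has a higher median in both long-term groups, and miR-145a-3p splits into a low and a high level within every group.

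miR-145a-5p, the guide of the neighbouring hairpin, held a far smaller share, with a mean of 0.15% ± 0.0853 over the 30 libraries (SD). Its rank by share ran from 24 to 40.5 (ties averaged). Its deposited value was 879 at the lowest, 1246 at the median and 1911 at the highest in ieET-1 long term, and 1158, 1298 and 1771 in ieCre long term. In ieET-1 short term it was 787, 1327 and 1996, and in ieCre short term 808, 960 and 2058. The 4 groups overlapped, with the narrowest range in ieCre long term and the lowest median in ieCre short term.

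The passenger strand miR-143-5p was rare. Its deposited value was 6.77 at the lowest, 9.23 at the median and 12.2 at the highest in ieET-1 long term, and 3.85, 7.19 and 12.4 in ieCre long term. In ieET-1 short term it was 7.87, 11.4 and 16.2, and in ieCre short term 4.80, 8.21 and 11.7. At both times the ieET-1 median was above the ieCre median, and the groups overlapped. These values rest on 10 to 874 reads per library: the lowest share, in ieCre long-term mouse 8149, was 0.000186% from 20 reads (exact 95% binomial interval 0.000114% to 0.000287%, counting error only).

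miR-145b was at a similar low level. It had 3.69 at the lowest, 6.15 at the median and 13.5 at the highest in ieET-1 long term, and 3.78, 7.70 and 10.1 in ieCre long term. It had 1.79, 5.64 and 6.53 in ieET-1 short term, and 2.62, 5.21 and 7.41 in ieCre short term. Its reads numbered 12 to 482 per library. miR-145b and miR-145a-5p bear the same family name, and the sources used here do not say how reads that match both were assigned, so the values of miR-145b are uncertain.

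miR-145a-3p, the passenger strand of miR-145a, did not form a continuum on the deposited scale. In 12 libraries it lay between 96.7 and 212 and in 18 between 446 and 1092, and 11 of the 12 low libraries were at 155 or less. The gap between these levels was 1.07 on the log2 scale, against 0.45 for the next widest gap, and the levels were defined by it after the values were seen. By share of reads the levels overlapped. ieCre long-term mouse 8149, at the high level, had 0.0139%, below the 0.0277% of ieET-1 short-term mouse 258, at the low level. Both levels were present in every group: 4 libraries were low and 4 high in ieET-1 long term, 1 and 6 in ieCre long term, 2 and 6 in ieET-1 short term, and 5 and 2 in ieCre short term. At short term, 6 of 8 mice with animal numbers below 1000 were at the low level, as was 1 of 7 with numbers of 8000 or above. At long term, 4 of 9 mice numbered in the 8000s and 1 of 6 in the 9000s were at the low level. By genotype, these were 4 of 6 ieET-1 and 0 of 3 ieCre mice in the 8000s, and 0 of 2 and 1 of 4 in the 9000s. At short term they were 2 of 4 ieET-1 and 4 of 4 ieCre mice below 1000, and 0 of 4 and 1 of 3 at 8000 or above. Genotypes were thus unevenly spread over the ranges at long term. What the animal numbers stand for is not given in the labels, and their part in the level of miR-145a-3p was not tested.

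The arm ratio of miR-145a, which has miR-145a-3p as its denominator, mostly followed this split. An exception was ieCre short-term mouse 9957, at the low level, with a ratio of 3.81. It was close to the 3.34 of ieET-1 short-term mouse 255, at the high level. miR-145a-5p over miR-145a-3p in reads was 0.970 at the lowest, 6.83 at the median and 16.4 at the highest in ieET-1 long term, and 1.14, 2.16 and 13.1 in ieCre long term. It was 0.775, 2.78 and 12.95 in ieET-1 short term, and 1.01, 9.03 and 19.8 in ieCre short term. Within each group it ran from about equal strands to at least a 12.95-fold excess of the 5p strand.

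**Figure D2:**
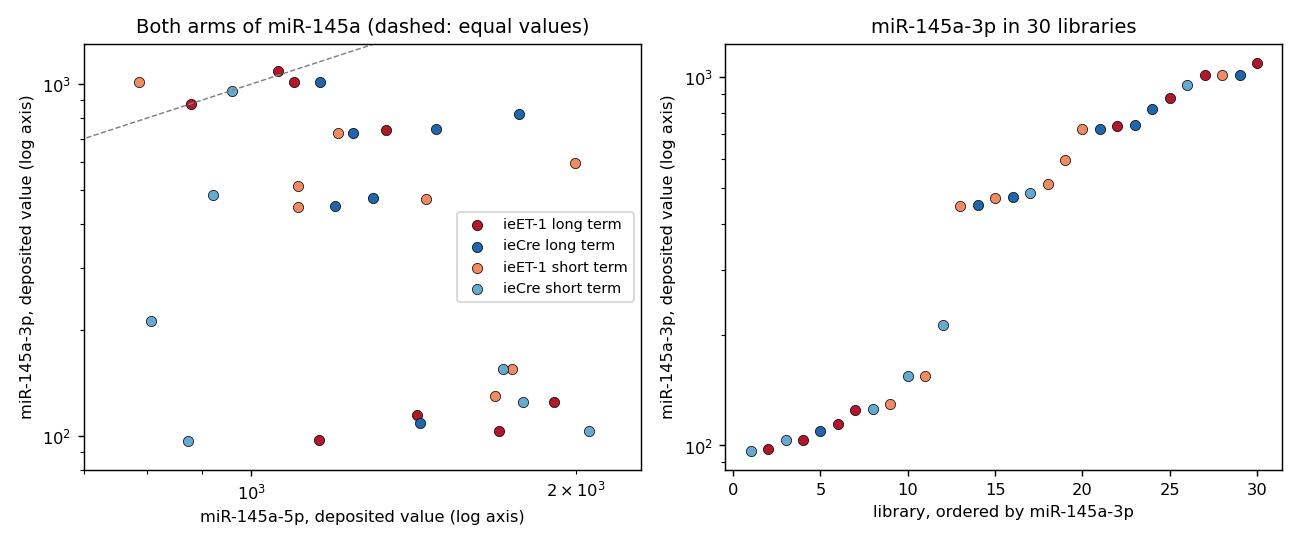
Left, miR-145a-3p against miR-145a-5p (deposited values, log axes, 1 point per library, dashed line at equal values); right, the 30 libraries ordered by miR-145a-3p. The low level (96.7 to 212) and the high level (446 to 1092) both hold libraries of all 4 groups, while miR-145a-5p stays between 787 and 2058.

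The arm ratio of miR-143 was far larger. miR-143-3p over miR-143-5p in reads was 19312 at the lowest, 88338 at the median and 110260 at the highest in ieET-1 long term, and 34027, 111180 and 348460 in ieCre long term. It was 17336, 22717 and 88361 in ieET-1 short term, and 20853, 28442 and 59905 in ieCre short term. No correction for ligation or length was applied to ratios between strands or between miRNAs.

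The ratio of the 2 guides, miR-143-3p over miR-145a-5p, was 145.1 at the lowest, 580 at the median and 644 at the highest in ieET-1 long term, and 257, 448 and 1736 in ieCre long term. It was 124, 197 and 632 in ieET-1 short term, and 127, 211 and 454 in ieCre short term. In every library the miR-143 guide had at least 124 times the reads of the miR-145a guide, and both long-term medians were above both short-term medians. miR-145b over miR-145a-5p averaged -7.85 ± 0.60 on the log2 scale and miR-143-5p over miR-145a-3p averaged -5.34 ± 1.29 (SD, n = 30 each).

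Endothelin-1 overexpression was compared with the Cre control at each time, and no member was called. Of all miRNAs tested, 0.0% passed in either comparison (limma on log2(value + 1), adjusted p below 0.05 after Benjamini-Hochberg over 354 miRNAs), so that 0 of 5 members equals the background. At short term limma found 9 miRNAs at an unadjusted p below 0.05, edgeR 13 and DESeq2 13, and none of these tools made a call. At long term these numbers were 20 for limma, 26 for edgeR and 25 for DESeq2, again with 0 calls by each.

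In ieET-1 long term against ieCre long term, the log2 change of miR-143-3p was -0.31 (95% interval -1.07 to 0.45) and that of miR-145a-5p was -0.08 (-0.54 to 0.38). The passenger strands gave 0.36 (-0.07 to 0.78) for miR-143-5p and -0.71 (-1.96 to 0.54) for miR-145a-3p, and miR-145b gave -0.14 (-0.66 to 0.38). Adjusted p-values by limma ran from 0.854 to 0.973. The signs of miR-143-3p, miR-145a-5p and miR-145b turned positive when values were scaled to all miRNA reads.

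In ieET-1 short term against ieCre short term, the log2 change was 0.34 (-0.41 to 1.10) for miR-143-3p and 0.13 (-0.33 to 0.59) for miR-145a-5p. It was 0.46 (0.03 to 0.88) for miR-143-5p, 0.98 (-0.27 to 2.23) for miR-145a-3p and -0.03 (-0.55 to 0.49) for miR-145b. The adjusted p by limma was 0.99 for each, and that of miR-143-5p was 0.0366 before adjustment. Among short-term mice numbered below 1000 the sign of miR-143-3p turned negative (-0.27), and scaled to all miRNA reads that of miR-145a-5p did (-0.06). The intervals are wide for miR-145a-3p, whose levels split as described, and narrowest for miR-143-5p and miR-145a-5p.

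**Figure D3:**
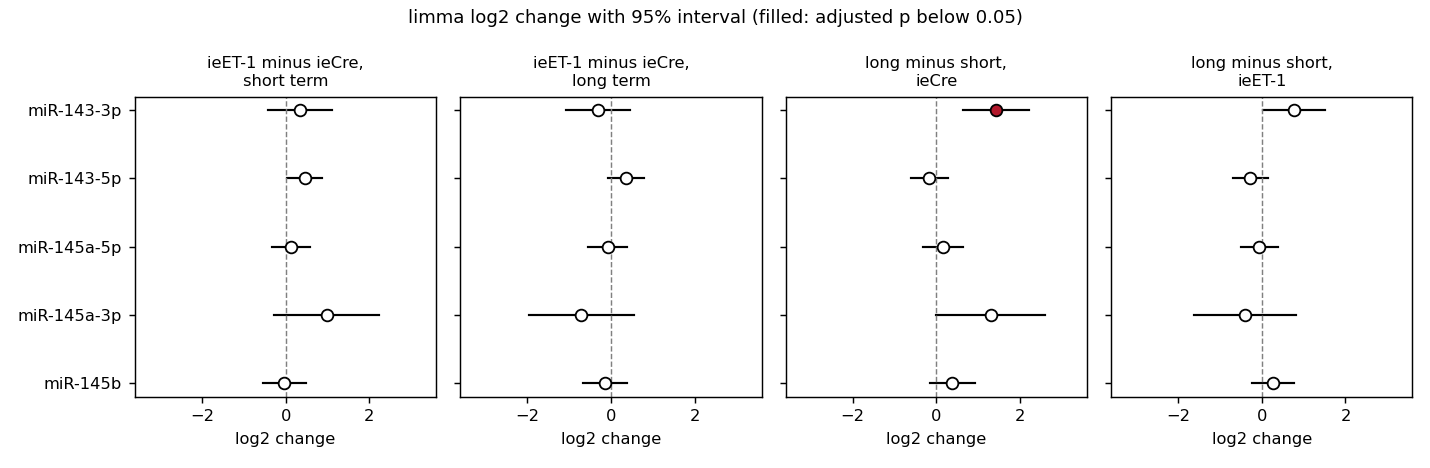
log2 change of each member (limma, log2(value + 1)) with its 95% interval for ieET-1 minus ieCre at short term and at long term, and for long minus short term in ieCre and in ieET-1 mice; a filled point marks an adjusted p below 0.05. Only miR-143-3p in ieCre mice, at 1.43, is filled, and the genotype intervals all have adjusted p-values of 0.854 or more.

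The time comparison within each genotype asks how the arteries of mice 3 months after tamoxifen differed from those 16 days after it; time after tamoxifen and age cannot be told apart. In ieCre mice miR-143-3p rose at long term, with a log2 change of 1.43 ± 0.38 (SE) and an adjusted p of 0.0167 by limma, a fold of 2.69 (95% interval 1.56 to 4.62). It was the only member called, 1 of 5, against 7.91% of all miRNAs tested, 2.26% called as higher and 5.65% as lower. Of the 354 tested, 8 were higher and 20 lower with the deposited scaling. The split was 16 higher and 17 lower with TMM scaling, 14 and 20 with median-ratio scaling, 0 and 213 when scaled to all miRNA reads, and 1 and 73 when scaled to the reads of miRNAs other than the members and miR-10b-5p. Scaled to all miRNA reads, miR-143-3p was not called (0.34, adjusted p = 0.15 by limma), while miR-143-5p (-1.10, adjusted p = 0.0146) and miR-145a-5p (-0.93, adjusted p = 0.0424) fell. The other members gave log2 changes of 0.16 ± 0.23 (SE) for miR-145a-5p, -0.17 ± 0.22 for miR-143-5p, 1.30 ± 0.63 for miR-145a-3p and 0.39 ± 0.26 for miR-145b, with adjusted p-values by limma of 0.19 to 0.678.

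The call on miR-143-3p depended on the scaling and on 1 library. The deposited values imply a scaling factor per library, the effective library size over the reads, which averaged 0.704 ± 0.251 in ieCre long term (SD, n = 7) and 1.43 ± 0.352 in ieCre short term (n = 7), and a lower factor gives higher values. Scaled to all miRNA reads, the log2 change was 0.34 (adjusted p = 0.15 by limma), while the median of all 354 miRNAs moved to -0.93, against -0.13 with the deposited scaling. Scaled to the reads of other miRNAs it was 0.94 (adjusted p = 0.0684 by limma), with a median of -0.58. Without ieCre long-term mouse 8149, which had the highest value and a scaling factor of 0.295, it was 1.15 (adjusted p = 0.0582 by limma). Among mice numbered 8000 or above it was 1.68 (adjusted p = 0.0606 by limma), and mice numbered below 1000 are all short term. Over all alternatives other than leaving out a library, the adjusted p ran from 0.00137 with DESeq2 to 0.15. Without the nearly identical libraries it was 0.0309 by limma. Under each of these settings the change was positive.

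In ieET-1 mice no member passed in long term against short term, 0 of 5 against 5.93% of all miRNAs tested, 1.98% called as higher and 3.95% as lower (7 higher and 14 lower; 6 and 14 with TMM, 7 and 12 with median-ratio scaling, 0 and 18 scaled to all miRNA reads, 1 and 1 scaled to the reads of other miRNAs). Without the nearly identical libraries 2 were higher and 5 lower. miR-143-3p gave a log2 change of 0.77 ± 0.36 (SE), with an adjusted p of 0.185 by limma. The other changes were -0.05 ± 0.22 for miR-145a-5p, -0.27 ± 0.20 for miR-143-5p, -0.40 ± 0.59 for miR-145a-3p and 0.28 ± 0.25 for miR-145b, with adjusted p-values by limma of 0.388 to 0.913. The sign of miR-145b turned negative scaled to all miRNA reads (-0.13), that of miR-145a-5p turned positive with median-ratio scaling (0.01), and that of miR-145a-3p was positive with edgeR and DESeq2 (0.04 each). With array weights miR-143-3p was called in ieET-1 mice as well (1.10, adjusted p = 0.0115 by limma). That setting called 97 of the 354 miRNAs, against 21 in the main fit, so a call on 1 of 5 members does not stand out.

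The effect of genotype was not found to differ between the times. The interaction on the log2 scale, the genotype effect at long term minus that at short term, was -0.65 ± 0.52 (SE) for miR-143-3p with an adjusted p of 0.784, and -1.69 ± 0.87 for miR-145a-3p with an adjusted p of 0.602, both by limma. Among all miRNAs 0.0% passed: limma made 0 calls with 24 at an unadjusted p below 0.05, edgeR 0 with 28 and DESeq2 0 with 32. The rise of miR-143-3p over time in ieCre mice, and its absence from the calls in ieET-1 mice, therefore does not show a difference between genotypes.

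Shares and ratios within a library do not depend on how it was scaled. Across 10 such measures and 5 comparisons, 0 of 50 permutation tests passed after adjustment, and 6 had an unadjusted p below 0.05, of which 5 were for long against short term in ieCre mice, 1 for long against short term in ieET-1 mice and 0 for a genotype or interaction comparison. The log2 arm ratio of miR-143 averaged 16.7 ± 1.08 in ieCre long term and 15.1 ± 0.634 in ieCre short term (SD, n = 7 each). The difference of 1.62 had the smallest p of the 50, 0.00524 by the exact two-sided permutation test and 0.262 after adjustment, and 6 of 7 long-term libraries were above every short-term library. The same ratio averaged 16.0 ± 0.929 in ieET-1 long term and 14.9 ± 0.915 in ieET-1 short term (n = 8 each), a difference of 1.06 (exact permutation p = 0.0406, adjusted 0.334). The log2 ratio of the guides averaged 9.05 ± 1.01 in ieCre long term and 7.78 ± 0.647 in ieCre short term, a difference of 1.27 (exact permutation p = 0.0163, adjusted 0.299), with all 7 long-term libraries above the short-term median. In ieET-1 mice it averaged 8.83 ± 0.742 at long term and 8.00 ± 1.00 at short term, a difference of 0.83 (exact permutation p = 0.0853, adjusted 0.388).

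The share of miR-143-3p averaged 48.6% ± 11.6 in ieCre long term and 38.0% ± 6.80 in ieCre short term (exact permutation p = 0.0577, adjusted 0.334, n = 7 each). It averaged 52.8% ± 13.1 in ieET-1 long term and 42.03% ± 6.87 in ieET-1 short term (exact permutation p = 0.0601, adjusted 0.334, n = 8 each). The differences of 10.7 and 10.8 percentage points were of similar size in both genotypes, and neither passed. Between genotypes the share differed by 4.16 percentage points at long term and 4.06 at short term, with adjusted p-values by exact permutation of 0.838 and 0.656. Among long-term mice numbered in the 8000s the difference was -1.41 percentage points, in the 9000s it was -2.58, and among short-term mice numbered below 1000 it was -1.74, while among short-term mice numbered 8000 or above it was 11.4. Its sign thus turned within 3 of the 4 ranges, and none of the 4 differences passed (adjusted p by exact permutation from 0.629 to 0.941). With 2 ieET-1 and 4 ieCre mice in the 9000s, an exact test cannot reach a p below 0.05. The other ranges held 3 to 6 mice per genotype, so these tests cannot show that a difference is absent. The log2 arm ratio of miR-145a averaged 2.01 ± 1.93 in ieET-1 long term, 1.38 ± 1.11 in ieCre long term, 1.67 ± 1.36 in ieET-1 short term and 2.52 ± 1.61 in ieCre short term, with SDs as large as the differences between groups.

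**Figure D4:**
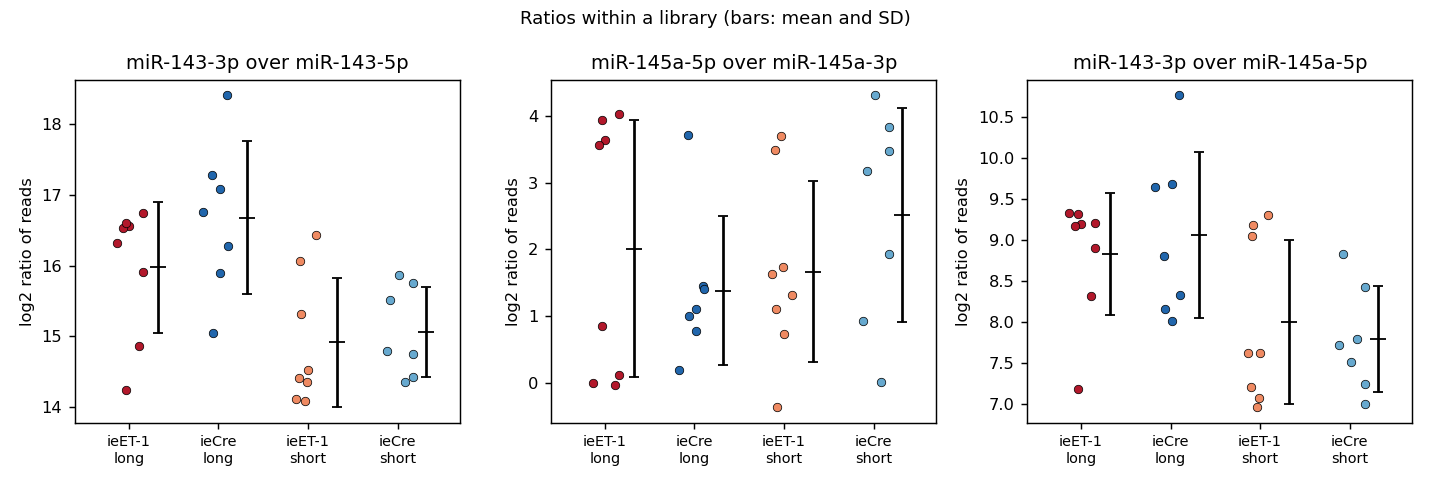
log2 ratios of reads within each library for miR-143-3p over miR-143-5p, miR-145a-5p over miR-145a-3p and miR-143-3p over miR-145a-5p, with 1 point per library and bars for the mean and SD of ieET-1 long term, ieCre long term, ieET-1 short term and ieCre short term. Both ratios with miR-143-3p on top have higher means in the long-term groups, with overlap.

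The arm ratio of miR-143 also moved with depth. Within groups, its log2 value correlated with the log2 of the library's reads at r = -0.532 (permutation p = 0.00234, adjusted 0.014 over 6 measures, n = 30) and at Spearman's rho = -0.596 (permutation p = 0.00056, adjusted 0.00336). Without the 2 libraries farthest from the median depth r was -0.52, and within ranges of animal number it was -0.579. None of the other 5 measures passed, with r from -0.298 for the guide ratio to 0.141 for miR-145b over miR-145a-5p. With log2 reads as a term, an alternative chosen after seeing the data, the difference of the miR-143 arm ratio between ieCre long and short term was 1.58 with an adjusted permutation p of 0.018.

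**Figure D5:**
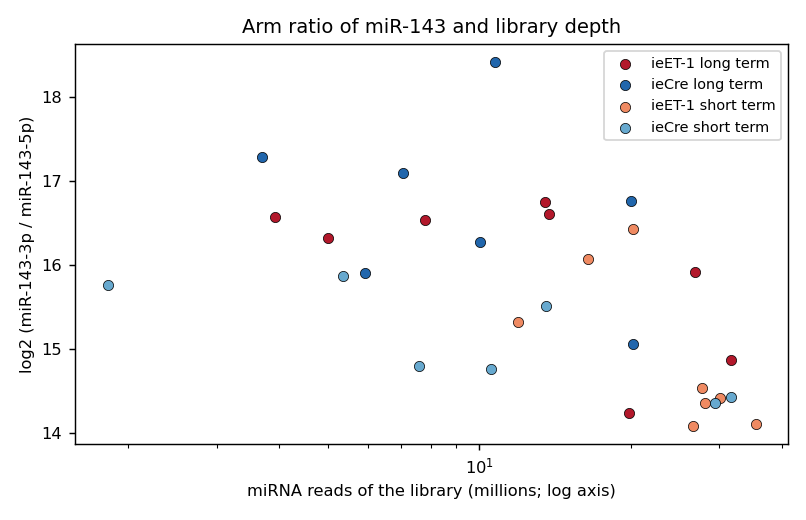
log2 of miR-143-3p over miR-143-5p against the miRNA reads of the library (log axis), with 1 point per library coloured as ieET-1 long term, ieCre long term, ieET-1 short term and ieCre short term. The ratio is lower in deeper libraries (r = -0.532 within groups).

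Co-variation asked whether members moved together from mouse to mouse inside a group. On log2(value + 1) with group means removed, 0 of the 6 pairs without miR-145a-3p passed (permutation test, Benjamini-Hochberg over the 10 pairs computed, n = 30). Of the 4 pairs with miR-145a-3p, 1 passed, that with miR-145a-5p (adjusted permutation p = 0.0397, and 0.0895 without the nearly identical libraries). Its sign was negative on this scale. On log2 shares of reads the sign of the same pair was positive, and it did not pass (adjusted permutation p = 0.629). The direction thus depended on the scaling. This pair did not pass with group means kept (adjusted permutation p = 0.215) nor with means of group and number range removed (0.322). Since the values of miR-145a-3p fall into separate levels, no pooled r is given for these 4 pairs. The strands of the miR-143 hairpin gave r = -0.228 (rho = -0.254, adjusted permutation p = 0.283), r = -0.221 without the 2 farthest libraries. The guides gave r = -0.08 (rho = -0.067, adjusted permutation p = 0.708), r = -0.07 without the 2 farthest. miR-143-3p with miR-145b gave r = -0.405 (rho = -0.267, adjusted permutation p = 0.13), and -0.144 without the 2 farthest, so that this value rests on those libraries. The 3 pairs among miR-143-5p, miR-145a-5p and miR-145b gave r from 0.237 to 0.294 (adjusted permutation p from 0.251 to 0.283).

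On log2 shares of reads those 3 pairs passed, and the 3 pairs of miR-143-3p with miR-143-5p, miR-145a-5p and miR-145b did not. Of the 4 pairs with miR-145a-3p, 2 passed on this scale, those with miR-143-3p (adjusted permutation p = 0.000525) and miR-143-5p (0.0104). The sign was negative with miR-143-3p and positive with miR-143-5p. miR-143-5p and miR-145a-5p gave r = 0.786 (rho = 0.767), miR-145a-5p and miR-145b r = 0.784 (rho = 0.755), and miR-143-5p and miR-145b r = 0.757 (rho = 0.782). Each had an adjusted permutation p of 3.333e-05, from 1e-05, the smallest that 100000 draws can give, and r of 0.694 to 0.76 without the 2 farthest libraries. A share of reads carries the depth taken by miR-143-3p and the scaling of all other miRNAs, and the part of these in the 3 correlations was not tested. miR-143-3p with miR-143-5p had r = -0.29 on this scale (adjusted permutation p = 0.17).

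Since miR-145a-3p falls into 2 levels on the deposited scale, its relations were examined within each. Of 8 relations none passed (permutation test, Benjamini-Hochberg over 8). The levels were split on the values of miR-145a-3p itself, which narrows its range, and the low level held only 1 ieCre long-term library. These tests therefore cannot show that a relation is absent. With miR-145a-5p, the other strand of its hairpin, r was -0.206 among the 12 low libraries (rho = 0.0, adjusted permutation p = 0.814) and -0.21 among the 18 high ones (rho = 0.036, adjusted permutation p = 0.814). The relation nearest to the threshold was with miR-143-5p among the 18 high libraries, r = 0.436 (rho = 0.503, adjusted permutation p = 0.567) and 0.381 without the 2 farthest.

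Other miRNAs reported to regulate the smooth muscle phenotype were read beside the members: 20 names with 41 rows, of which 30 passed the filter. In ieET-1 long term against ieCre long term and in ieET-1 short term against ieCre short term, 0 of 30 passed, with medians of 0.04 and -0.05 on the log2 scale, against -0.01 and -0.04 for all miRNAs. In ieCre mice 0 of 30 passed for long against short term, against 7.91% of all miRNAs tested (median 0.11, against -0.13 for all). In ieET-1 mice 2 of 30 rose and 0 fell (median 0.12, against -0.09 for all). Among all miRNAs tested 5.93% were called there, 1.98% as higher. Over both directions the list was thus called about as often as all miRNAs. These were miR-23b-3p, with a log2 change of 0.54 ± 0.16 (SE, adjusted p = 0.0429 by limma), and miR-29b-3p, a repressor of collagen and other matrix genes, with 0.81 ± 0.25 (adjusted p = 0.0482 by limma). Neither passed without the nearly identical libraries, where miR-23b-3p gave 0.58 ± 0.17 (adjusted p = 0.0597 by limma) and miR-29b-3p 0.73 ± 0.24 (adjusted p = 0.101). Each call was also lost in 13 of the 16 fits that left out 1 ieET-1 library. Scaled to all miRNA reads, miR-23b-3p gave 0.07 (adjusted p = 0.889 by limma) and miR-29b-3p 0.37 (adjusted p = 0.476).

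Markers of other cell types were read in the same comparisons. Of 2 endothelial rows, both of miR-126a, 0 passed in any comparison, and their summed values were 8399 to 27160 in ieET-1 long term, 5468 to 14460 in ieCre long term, 5939 to 22210 in ieET-1 short term and 5759 to 38670 in ieCre short term. Of 8 tested epithelial rows, miR-215-5p rose in ieET-1 long term against ieET-1 short term (log2 change 1.61 ± 0.40 SE, adjusted p = 0.0216 by limma). It passed without the nearly identical libraries as well (1.71 ± 0.42, adjusted p = 0.0431 by limma), but not among numbers 8000 or above (1.70, adjusted p = 0.329) nor without libraries under 5000000 reads (0.99, adjusted p = 0.0791). All 8 were above 0 in that comparison (median 1.16, against -0.09 for all miRNAs), and 7 of 8 in ieCre long term against ieCre short term (median 0.43, against -0.13). The summed values of the 16 epithelial rows were 477 to 11040 in ieET-1 long term, 635 to 1337 in ieCre long term, 317 to 818 in ieET-1 short term and 324 to 1190 in ieCre short term. None of these rows was at 0 in every library. The part of epithelial tissue in the time comparisons was not tested. In the striated muscle, leukocyte, erythroid, adipose, neural and pancreatic lists 0 rows passed in any comparison (limma). Among all miRNAs tested, 7.91% were called over time in ieCre mice, 5.93% over time in ieET-1 mice and 0.0% in the other comparisons.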

How the data were processed

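Small RNA libraries were made from 1 µg of RNA per mouse with a TruSeq kit for small RNA, per the labels' protocols. STAR 2.3.1, edgeR 3.6.8, R 3.2.3, FastQC and bcl2fastq 1.8.4 are named by the authors, per the submitters' processing notes. The sources used here do not name the genome build, the miRNA annotation or the trimming. The authors deposited a normalized signal per miRNA and library. In each library 100% of values were whole multiples of the smallest value above 0 (tolerance 0.001), which gave the reads. The members and lists were chosen with earlier results of these data known.

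The 354 of 870 miRNAs that reached a value of 1 in 8 or more libraries were tested with limma 3.58.1 (R 4.3.3, intensity trend) on log2(value + 1), fitting the 4 groups jointly, with two-sided p-values adjusted by Benjamini-Hochberg and called below 0.05. Fold changes on the log2(value + 1) scale understate changes of rare miRNAs. The p-values measure the spread between libraries, each labelled with another animal number. Shares are percent of recovered reads, and ratios have 0.5 reads added to each side. Single measures were compared with exact permutation tests, the interaction with 100000 draws within each time, adjusted over 50 tests. Correlations over libraries used 100000 permutations. Genes are placed by GENCODE M21 (GRCm38).

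The text names the 5 members, the 5 miRNAs most like each guide, the 4 most abundant miRNAs and up to 2 members of each list. Alternatives were a pseudocount of 0.5 or 5, a filter at 10 or none, 4 other scalings, array weights, edgeR 4.0.16 and DESeq2 1.42.0 on recovered reads, fits of the compared groups alone, ranges of animal number, and leaving out each library or the nearly identical libraries. Added after the data were seen were a fit without libraries under 5000000 reads and a term for log2 reads. The limma and edgeR fits were tested on simulated data. Figures were drawn with matplotlib 3.10.9.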

Additional observations from a re-analysis of the deposited data

Results flagged for a closer look

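Values of each group were searched for a single library far from the others, by Dixon's ratio of the gap to the group's range. Of 60 groups of values, 8 had such a library. Chance flags about 1 in 20 groups only where groups are independent and values normally distributed. The groups here share members and libraries, and normality was not tested, so the 8 cannot be set against that rate. In ieCre long term, mouse 8149 had the highest deposited value of miR-143-3p, 2253000, against 1021000 for the next library. ieCre long-term mouse 9486 had the highest share of miR-143-5p, 0.001274%, and ieCre long-term mouse 9491 the highest log2 ratio of miR-145a-5p over miR-145a-3p, 3.712. ieET-1 long-term mouse 9490 was the extreme library for 4 values: miR-145b at a deposited value of 13.49 and a share of 0.002427%, miR-145a-5p at a share of 0.2402%, and the log2 ratio of miR-143-3p over miR-145a-5p at 7.181, the lowest of its group. In ieCre short term, mouse 8754 had the highest share of miR-145a-3p, 0.1586%.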

How the results depend on the processing

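The deposited scaling, the depth of the rare strands and single libraries set the limits of these results. No paired analysis was possible because no animal number occurs in more than 1 group. Every log2 change of a member named below was without a call in the main comparison unless a call is stated, and the cause of a change of sign was not tested.

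For ieCre long against short term, 1 member was called, against 2 scaled to all miRNA reads (miR-143-5p and miR-145a-5p, both lower, and not miR-143-3p), 0 scaled to reads of other miRNAs, 0 among animal numbers 8000 or above, and 0 to 1 when each library was left out. miR-143-3p was then at 0.34, 0.94 and 1.68 in the first 3 settings, and at 1.15 to 1.58 with each library left out. Of all 354 miRNAs, 28 were called in the main fit. Scaled to all miRNA reads 213 were called, all lower, with a median log2 change of -0.93. The 2 members called lower there thus moved with most miRNAs. miR-145a-5p turned to -0.93 and miR-145b to -0.50 scaled to all reads, and to -0.33 and -0.0218 scaled to other miRNAs. For ieET-1 long against short term, 0 members were called, against 1 with array weights, which called 97 of all 354 miRNAs. In this time comparison miR-145b was -0.13 scaled to all reads and miR-145a-3p 0.0398 with edgeR and 0.0395 with DESeq2. miR-145a-5p was 0.0078 with median-ratio scaling, 0.31 among numbers 8000 or above, 0.0021 without the nearly identical libraries, 0.0115 without libraries under 5000000 reads, 0.0156 with log2 reads as a term, and -0.16 to 0.0298 with each library left out.

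For ieET-1 against ieCre at long term, scaling to all reads gave 0.11 for miR-143-3p, 0.34 for miR-145a-5p and 0.20 for miR-145b, and scaling to other miRNAs gave 0.0935, 0.32 and 0.22. miR-143-3p was 0.0178 with array weights, miR-145a-5p 0.0943 in the 8000s, miR-145a-3p 1.11 and miR-145b 0.47 in the 9000s, and miR-145b 0.0268 without libraries under 5000000 reads. At short term miR-145a-5p was -0.0635 scaled to all reads. miR-145b was 0.0029 with median-ratio scaling, 0.16 with array weights, 0.23 among numbers below 1000 and -0.15 to 0.12 with each library left out, and miR-143-3p was -0.27 among numbers below 1000.

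No library measure passed, against 1 with log2 reads as a term (the miR-143 arm ratio, which also passed at 1.89 without ieCre long-term mouse 9486). The fit with log2 reads was tested by permuting deviations over all libraries, not by the exact test. The genotype difference in the share of miR-143-3p was -1.74 percentage points among numbers below 1000, 11.4 among short-term numbers 8000 or above, -1.41 in the 8000s and -2.58 in the 9000s. The miR-143 arm ratio differed by 0.62 between genotypes among short-term numbers 8000 or above and by 0.42 with log2 reads as a term, the miR-145a arm ratio by -1.40 in the 9000s and, over time in ieCre, by 0.42 among numbers 8000 or above. The guide ratio differed by -0.43 between genotypes among numbers below 1000 and by -0.40 to 0.0565 at long term with each library left out. The correlation of the guides was 0.083 with means of group and number range removed. Of the 6 pairs without miR-145a-3p none passed, against 3 on log2 shares. Of the 4 with it 1 passed, that with miR-145a-5p, against 2 on log2 shares and 0 without the nearly identical libraries. With means of group and number range removed, miR-145a-5p did not pass (adjusted permutation p = 0.322), whereas miR-143-5p did, with a positive sign (0.0416). With group means kept, miR-145a-5p did not pass either (adjusted permutation p = 0.215).

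Over all miRNAs, the 28 calls in ieCre became 213 scaled to all reads and 74 scaled to other miRNAs. The 21 calls in ieET-1 became 12 with the filter at 10, 2 scaled to other miRNAs, 97 with array weights, 36 with edgeR, 44 with DESeq2, 0 among numbers 8000 or above, 7 without the nearly identical libraries, 5 without libraries under 5000000 reads and 8 with log2 reads as a term. With each library left out they were 18 (without ieCre long-term mouse 8149) to 39 in ieCre and 7 to 30 in ieET-1. In ieET-1 they were 10 to 12 without long-term mouse 8134, 8150, 8151 or 8152, 10 to 13 without short-term mouse 255, 256 or 257, and 7 without short-term mouse 258.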

Other observations

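The miRNAs that followed miR-145a-3p most closely over the 30 libraries were looked up after its levels had been seen, and are a description only. With group means removed, Pearson's r of log2(value + 1) was 0.892 for miR-501-3p, 0.883 for miR-221-5p, 0.874 for miR-99b-5p, 0.856 for miR-409-5p and 0.833 for miR-n6, and 0.86 to 0.905 for the same miRNAs on log2 shares of reads. These r values pool both levels of miR-145a-3p, and the relations within each level were not computed for these miRNAs. None of these miRNAs is near miR-143-3p or miR-145a-5p in the lists of the guides. Their mature sequences (RefSeq, GRCm38.p6, seed in capitals) are given because the group includes another passenger strand, miR-221-5p, and an abundant guide, miR-99b-5p, at 0.722% of reads:
miR-501-3p: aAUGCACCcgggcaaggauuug
miR-221-5p: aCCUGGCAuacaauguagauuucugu
miR-99b-5p: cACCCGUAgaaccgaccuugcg
miR-409-5p: aGGUUACCcgagcaacuuugcau
No seed is shared among them. miR-501-3p (chrX:7241270-7241291) and miR-221-5p (chrX:19146344-19146369) lie on the minus strand of the same chromosome, and the other two on chromosomes 17 and 12.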
